A study of Mus musculus with 43 samples.

Results

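The libraries described here were the 6 bulk RNA-seq libraries of irradiated mouse intestinal organoids that had received a pulse of TGFB1, 3 collected at day 7 (D7) and 3 at day 11 (D11), out of 18 bulk RNA libraries and 43 samples in the series. They were chosen by their labels and not by any measured value. All were primary intestinal organoids from wild-type C57BL/6 mice that received 4 Gy of ionizing radiation on day 4 and, from day 6, a 24 h pulse of TGFB1 at 2 ng/mL, so D7 was the end of the pulse and D11 came 4 days after it. The controls were 3 irradiated vehicle libraries for each day, with the same radiation and timing. The labels do not say whether the replicates came from separate cultures or mice, so that p-values measure the spread between these libraries, which may be technical. Of 23951 genes, 11381 had a mean of at least 1 FPKM (fragments per kilobase of transcript, scaled to the library's mapped fragments) in the 6 TGFB1 libraries.

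Intestinal organoids are closed epithelial structures grown from crypt cells, with stem cells, dividing progenitors, absorptive enterocytes and secretory cells, and no blood vessels or immune cells of their own. TGFB1 binds a pair of receptor kinases that phosphorylate SMAD2 and SMAD3. These enter the nucleus with SMAD4, switch on target genes, among them their own inhibitors, and halt division in most epithelial cells. After injury the intestinal epithelium can enter a regenerative, fetal-like state marked by genes such as Clu and Anxa1. The comparison of D11 with D7 asks which RNA levels seen at the end of the pulse faded, stayed or appeared after it.

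The D7 and the D11 libraries were deposited in separate tables, so the levels of the 2 days were compared without a test, and day and table cannot be told apart in them. A gene was counted as higher or lower at D11 when its mean log2(FPKM + 1) differed by at least 1 (2-fold) and the 3 libraries of D7 did not overlap the 3 of D11. Fold changes on this scale understate the change of low genes. The effect of TGFB1 over vehicle was tested within each table with limma, and so was the interaction of day with TGFB1, which is the effect at D11 minus the effect at D7, in log2 units. Any scale shared by the libraries of 1 table drops out of that term for genes well above 1 FPKM. For genes near or under 1 FPKM it drops out only in part, because 1 is added before the log. The scales of the libraries were close: the upper quartile was 12.4 to 12.9 FPKM in the 12 irradiated libraries, and the median-ratio factor over both tables lay between 0.997 and 1.03. The sum of all values was 607535 to 621996 FPKM in the D7 TGFB1 libraries and 447728 to 473933 FPKM at D11. The median coefficient of variation of genes above 10 FPKM was 4.12% at D7 and 5.36% at D11 with TGFB1, and 3.22% and 8.24% with vehicle.

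The organoids stayed epithelial by their markers. Summed over 8 epithelial markers, the level was 14468 to 15642 FPKM at D7 and 7215 to 7916 FPKM at D11 with TGFB1, beside 6129 to 6319 and 5515 to 6686 FPKM with vehicle. Of 10 mesenchymal markers, all lay under 1 FPKM in every TGFB1 library and 4 were listed at 0 on each day. Their sum was 0.481 to 0.832 FPKM at D7 and 0.131 to 0.151 FPKM at D11. The 10 immune markers summed to 6.13 to 6.90 FPKM at D7 and 7.48 to 9.18 FPKM at D11, with 8 of them under 1 FPKM in every library of either day and 1 listed at 0. The 9 endothelial, neural and erythroid markers summed to under 1 FPKM in each library. In bulk RNA, fewer cells of a type and less RNA per cell cannot be told apart.

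Levels with TGFB1 differed between the days for a minority of genes. At D11, 719 genes (6.32%) were higher and 970 (8.52%) lower than at D7, while 7559 genes (66.4%) stayed within 1.5-fold and the median difference over all genes was 0.0037 in log2 units. With vehicle, 388 genes (3.44%) were higher and 381 (3.38%) lower at D11 of 11264, and 79.3% stayed within 1.5-fold. Of 10943 genes measured in both comparisons, 33 were higher at D11 with TGFB1 and with vehicle, which is 5.12% of the 645 TGFB1 genes and 10.1% of the 327 vehicle genes. Among genes lower at D11, 242 were lower with both, 26.8% of the 903 TGFB1 genes and 65.2% of the 371 vehicle genes.

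**Figure D1:**
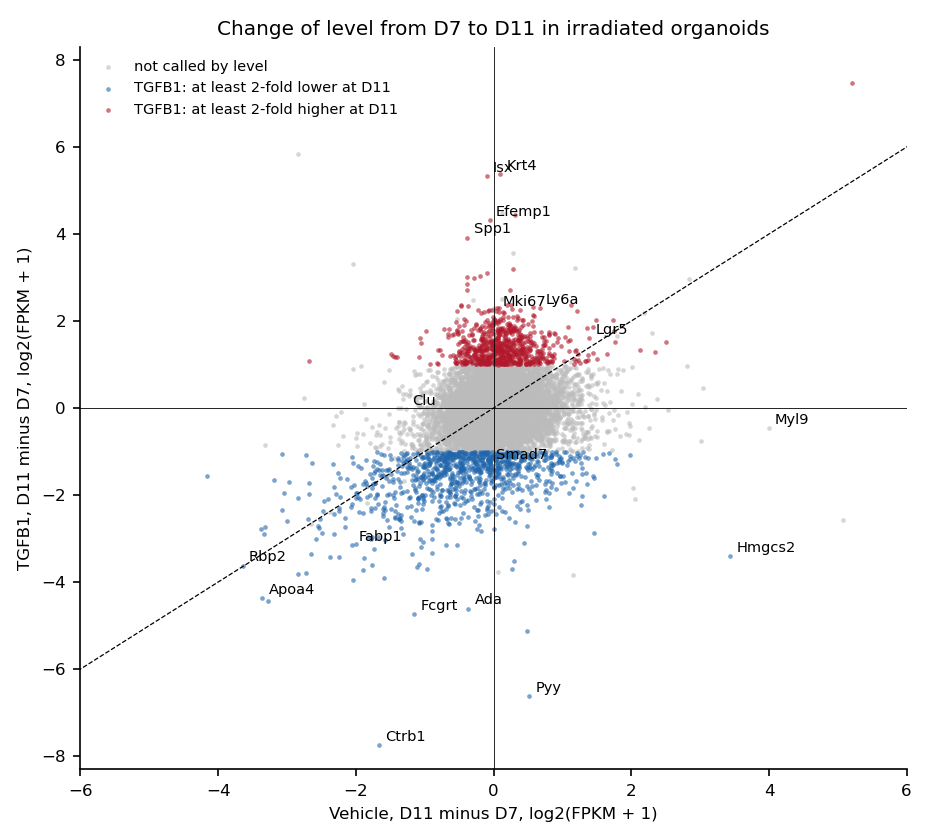
Difference of the mean log2(FPKM + 1) between D11 and D7 for the 11381 genes, vehicle on the x axis and TGFB1 on the y axis, 3 libraries per group. Red points are the 719 genes at least 2-fold higher and blue points the 970 genes at least 2-fold lower at D11 with TGFB1 without overlap of the groups, and the dashed line marks equal differences; of the labelled genes Isx and Krt4 stand highest, near no difference with vehicle, and Ctrb1 and Pyy lowest.

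The feedback genes Smad7, Skil and Pmepa1 of the TGFB pathway were lower 4 days after the pulse and still above vehicle. In the list of feedback and direct target genes, 1 member was higher and 6 lower at D11 of 19 that passed the filter (6.32% and 8.52% of all genes), with a median difference of -0.74 beside -0.019 with vehicle. The effect was positive in 17 of 19 members at D7 (35.8% of all genes were called positive) and in 11 at D11 (32.3% of all genes), and 1 of 19 members had a positive and 13 a negative interaction (31.5% and 33.0% of all genes). Smad7, an inhibitory SMAD that blocks the receptor, stood at 15.2, 15.3 and 15.1 FPKM with TGFB1 at D7 and 5.69, 5.102 and 6.304 FPKM with TGFB1 at D11. The vehicle libraries held 2.57, 2.76 and 2.96 FPKM at D7 and 2.33, 2.51 and 3.03 FPKM at D11, so all D11 TGFB1 libraries lay between the D7 TGFB1 libraries and all vehicle libraries. Its effect was 2.11 (SE 0.059, limma, adjusted p = 5.34e-10) at D7 and 0.89 (SE 0.11, limma, adjusted p = 9.25e-05) at D11. Skil, a repressor of SMAD transcription, showed 24.2, 22.3 and 24.6 FPKM with TGFB1 at D7 and 8.75, 8.26 and 9.22 FPKM with TGFB1 at D11, beside 3.45, 3.37 and 3.68 FPKM at D7 and 2.24, 2.01 and 2.25 FPKM at D11 with vehicle. The libraries of the 4 groups were ordered in the same way as for Smad7, and the interaction was -0.84 (SE 0.099, limma, adjusted p = 5.36e-06).

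Pmepa1, which encodes a membrane protein that captures receptor-regulated SMADs, was lower at D11 and still far above vehicle. It stood at 215, 223 and 229 FPKM with TGFB1 at D7 and 107, 88.2 and 100.01 FPKM with TGFB1 at D11, with vehicle means of 9.14 and 5.57 FPKM. The effect was 4.46 at D7 and 3.92 (SE 0.11, limma, adjusted p = 1.65e-08) at D11 in log2 units, with a negative interaction of -0.54 (SE 0.13, limma, adjusted p = 0.00204). Ctgf (Ccn2), a matrix-associated factor shared with the YAP pathway, went the other way, with 11.4, 11.8 and 14.1 FPKM with TGFB1 at D7 and 40.3, 33.1 and 29.7 FPKM with TGFB1 at D11 and a vehicle mean near 1.07 FPKM at D11. Its interaction was 1.41 (SE 0.19, limma, adjusted p = 1.8e-05). Cdkn2b, the CDK inhibitor p15, went from a mean of 84.3 FPKM at D7 to 38.7 FPKM at D11 with TGFB1, but vehicle was lower at D11 too, going from 40.4 to 18.9 FPKM, and the effect was 1.04 at D7 and 1.00 at D11. Tgfbi, a secreted matrix protein named for its induction by TGFB, was not raised on either day: its means were 2.77 FPKM with vehicle and 1.95 with TGFB1 at D7, and 8.75 and 0.804 FPKM at D11. The interaction was -2.08 (SE 0.14, limma, adjusted p = 3.62e-08).

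Among ligands, receptors and SMADs, 0 members were higher and 1 lower at D11 of 10 that passed the filter (6.32% and 8.52% of all genes), with a median difference of 0.13 beside 0.18 with vehicle. The member that was lower was Tgfb1 itself, the gene of the ligand, at 33.4, 33.01 and 34.2 FPKM with TGFB1 at D7 and 14.6, 11.5 and 13.9 FPKM with TGFB1 at D11. With vehicle it moved the opposite way, from 3.58, 2.901 and 3.81 to 12.3, 14.7 and 15.9 FPKM, so that the vehicle and TGFB1 groups overlapped at D11. The effect was 2.97 (SE 0.074, limma, adjusted p = 2.78e-10) at D7 and -0.095 (SE 0.11, limma, adjusted p = 0.486) at D11. Thbs1, the activator of latent TGFB thrombospondin-1, stayed raised on both days at 65.4, 64.3 and 74.4 FPKM with TGFB1 at D7 and 66.8, 44.8 and 50.8 FPKM with TGFB1 at D11, beside vehicle means of 2.85 and 1.85 FPKM. Itgav, an integrin subunit that binds latent TGFB, had effects of 1.94 at D7 and 1.53 at D11, both called.

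Clu and Anxa1, markers of the regenerative state, were as high or higher 4 days after the pulse as at its end, while other members of their list were lower. Of the regenerative and fetal-like list, 7 members were higher and 5 lower at D11 of 30 that passed the filter (6.32% and 8.52% of all genes), with a median difference of -0.22 beside 0.044 with vehicle. At D11 the effect of TGFB1 was positive in 27 of 30 members (32.3% of all genes), and at D7 in 29 of 30 (35.8% of all genes). Members low with vehicle can pass the filter through the TGFB1 libraries alone, which favours positive calls. Spp1 did so on both days, with vehicle means of 0.699 and 0.344 FPKM, and Il33 did so at D11, with 0.440 FPKM. The sign of the list's median difference of levels depended on scaling: with quantile normalization it was 0.19. Clu, a secreted chaperone, stood at 3839, 3912 and 4154 FPKM with TGFB1 at D7 and 4352, 3563 and 3899.6 FPKM with TGFB1 at D11. The groups of the 2 days overlapped, while vehicle held 186, 179 and 208 FPKM at D7 and 72.1, 78.2 and 85.4 FPKM at D11. The vehicle level was lower at D11, and the effect was 4.37 (SE 0.056, limma, adjusted p = 1.07e-11) at D7 and 5.63 (SE 0.12, limma, adjusted p = 2.18e-09) at D11. Anxa1, a membrane-binding annexin, had 202, 201 and 223 FPKM with TGFB1 at D7 and 299, 250.03 and 287 FPKM with TGFB1 at D11, and here every D11 library lay above every D7 library by less than 2-fold. The vehicle means were 14.5 and 10.6 FPKM. Anxa10, an annexin also found in gastric epithelium, was lower at D11, at 205, 213 and 245 FPKM with TGFB1 at D7 and 70.04, 69.3 and 67.6 FPKM with TGFB1 at D11, but still had an effect of 2.87 (SE 0.13, limma, adjusted p = 2.34e-07). Tm4sf4, a tetraspanin-like membrane protein, went from a mean of 275 FPKM at D7 to 77.3 FPKM at D11, with an interaction of -1.82 (SE 0.22, limma, adjusted p = 1.63e-05).

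Ly6a, Spp1 and Il33 of the same list were far higher at D11 than at the end of the pulse. Ly6a (Sca-1), a surface marker of the regenerating and fetal epithelium, had 53.8, 48.3 and 46.4 FPKM with TGFB1 at D7 and 271, 261 and 213 FPKM with TGFB1 at D11, with 30.1, 28.8 and 28.3 FPKM at D7 and 38.3, 50.5 and 52.7 FPKM at D11 in the vehicle libraries. At D7 the TGFB1 libraries already lay above every vehicle library of that day, with an effect of 0.75 (SE 0.055, limma, adjusted p = 4.95e-07). The D7 TGFB1 libraries overlapped the D11 vehicle libraries, the D11 TGFB1 libraries stood above all others, and the interaction was 1.63 (SE 0.16, limma, adjusted p = 1.13e-06). Spp1, the secreted phosphoprotein osteopontin, had 2.43, 2.59 and 2.84 FPKM with TGFB1 at D7 and 48.4, 31.6 and 100.4 FPKM with TGFB1 at D11. The D11 libraries of this gene differed among themselves by over 3-fold, yet all lay above the D7 libraries, and the interaction was 4.30 (SE 0.50, limma, adjusted p = 4.21e-05). Il33, an alarmin cytokine, had 1.29, 1.46 and 1.23 FPKM with TGFB1 at D7 and 11.3, 11.1 and 10.7 FPKM with TGFB1 at D11 and an effect of 0.22 at D7 and 3.07 (SE 0.11, limma, adjusted p = 3.86e-08) at D11.

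**Figure D2:**
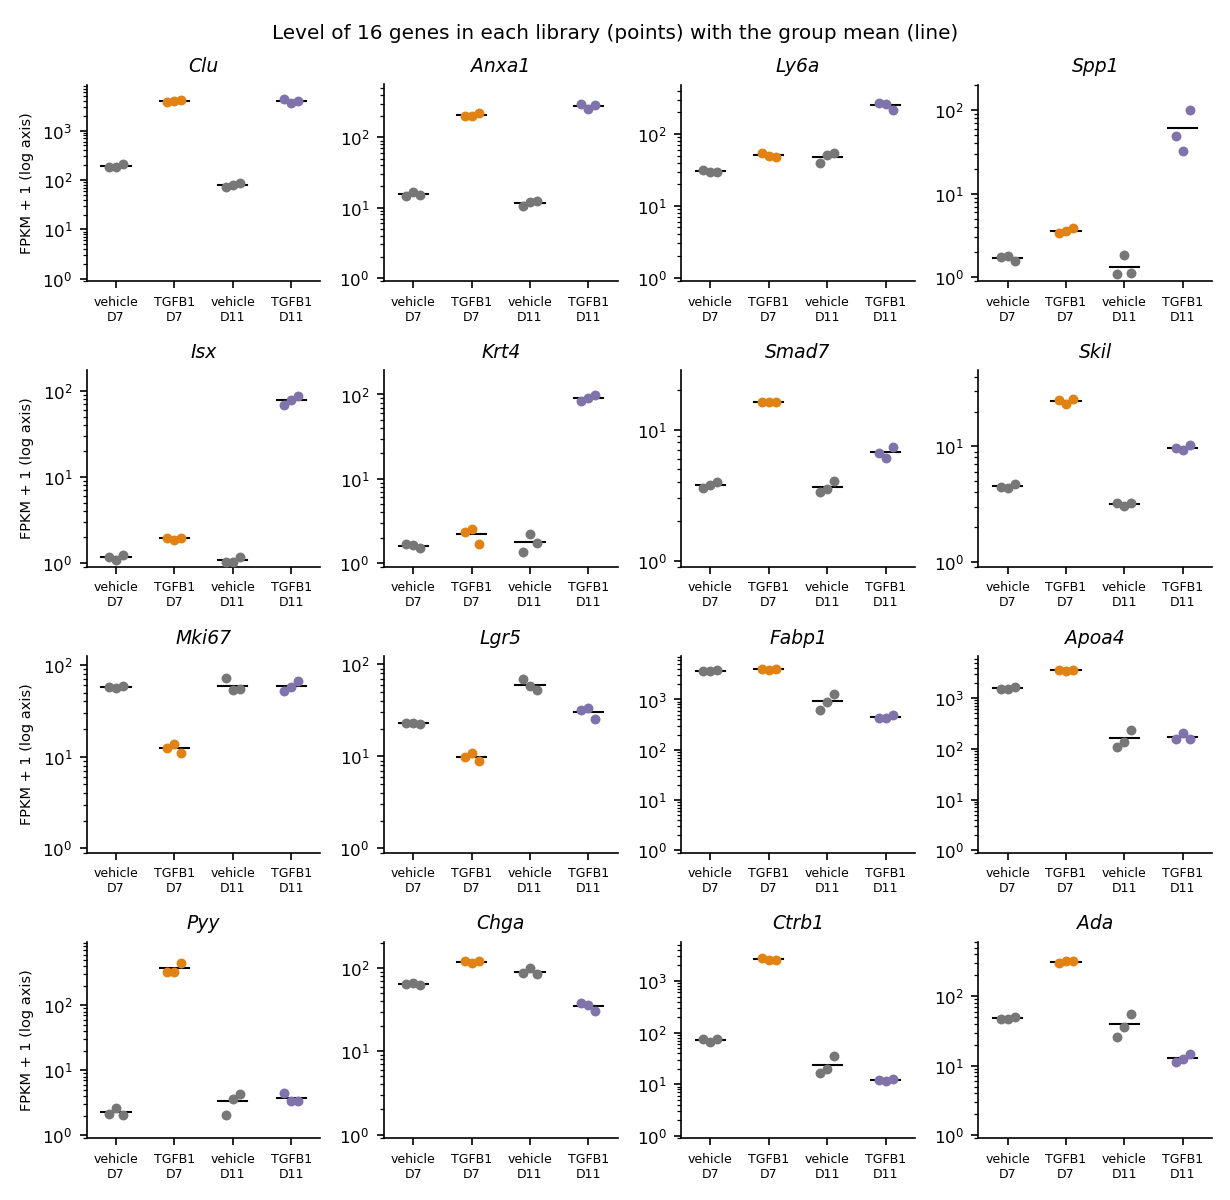
FPKM + 1 on a log axis for 16 genes in each of the 12 irradiated libraries, with points for libraries and a line for the mean of each group of 3. Clu and Anxa1 stay high with TGFB1 on both days, Ly6a, Spp1, Isx and Krt4 are high with TGFB1 at D11, Mki67 and Lgr5 are lowest with TGFB1 at D7, and Pyy, Ctrb1 and Ada are high with TGFB1 at D7 alone.

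The largest increases named here started from low levels, with D7 TGFB1 means from 0.121 FPKM (Efemp1) to 5.77 FPKM (Gtse1). A ranking by log2 difference favours such genes. The ranking uses the same TGFB1 libraries as the interaction, so the p-values of these genes are no separate support for their increase. Isx and Efemp1 averaged under 1 FPKM in every other group and passed the filter through the D11 TGFB1 libraries alone. By the naming rule the 12 with the largest positive difference included Krt4, Isx, Efemp1, Spp1, Ly6c1, Wfdc18, Wnt7b, Stc2, Gtse1, Slc25a48 and Anln. Isx, a homeodomain factor that in the intestine represses retinoid uptake and cleavage genes, had 0.964, 0.852 and 0.973 FPKM with TGFB1 at D7 and 68.5, 76.7 and 86.3 FPKM with TGFB1 at D11. With vehicle it held 0.165, 0.0937 and 0.225 FPKM at D7 and 0.0355, 0.0366 and 0.185 FPKM at D11, and the D11 TGFB1 libraries stood far above all others, with an effect of 6.17 (SE 0.11, limma, adjusted p = 8.66e-10) and an interaction of 5.43 (SE 0.14, limma, adjusted p = 1.88e-11). Krt4, a keratin of stratified squamous epithelium, had 1.36, 1.5001 and 0.699 FPKM with TGFB1 at D7 and 81.9, 89.1 and 96.8 FPKM with TGFB1 at D11, beside vehicle means of 0.608 and 0.752 FPKM. Its interaction was 5.29 (SE 0.24, limma, adjusted p = 1.6e-09). Efemp1 (fibulin-3), a matrix glycoprotein, went from 0.0919, 0.0893 and 0.183 to 20.9, 20.96 and 22.4 FPKM, with an interaction of 4.38 (SE 0.12, limma, adjusted p = 1.88e-11). Wnt7b, a WNT ligand, went from 1.49, 1.61 and 1.35 to 19.7, 15.7 and 22.9 FPKM. Wfdc18, a secreted whey acidic protein family member, went from a mean of 2.71 to 30.6 FPKM, and Slc25a48, a mitochondrial carrier, from 4.65 to 37.2 FPKM. Each of these 6 genes had a vehicle mean under 2 FPKM on both days.

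Gpx2, a glutathione peroxidase of the intestinal epithelium, and Kcne3, a potassium channel subunit of crypt cells, were raised at D11 alone, and their vehicle level was lower at D11. Gpx2 stood at 808, 817 and 829 FPKM with TGFB1 at D7 and 1803, 1755 and 2069 FPKM with TGFB1 at D11, and with vehicle at 903, 909.7 and 938 FPKM at D7 and 286, 378 and 342 FPKM at D11. The TGFB1 libraries were therefore above vehicle at D11 and close to it at D7, with an interaction of 2.65 (SE 0.14, limma, adjusted p = 3.75e-09). Its pseudogene Gpx2-ps1 gave the same pattern (interaction 2.73), but reads of the 2 cannot be told apart here, so their separate levels are uncertain. Kcne3 had 72.4, 57.9 and 57.7 FPKM with TGFB1 at D7 and 133, 142 and 100.2 FPKM with TGFB1 at D11 and vehicle means of 98.5 and 25.3 FPKM.

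Cell division genes were below vehicle at the end of the pulse and close to vehicle at D11. All 20 genes of the mitosis list and 22 of 25 of the DNA replication list were higher at D11 (6.32% of all genes), with median differences of 1.89 and 1.57, beside 0.016 and 0.28 with vehicle. At D7 the effect was negative in all 20 and all 25 members (39.7% of all genes). At D11 it was positive in 8 and negative in 3 mitosis genes, and positive in 6 and negative in 8 replication genes, beside 32.3% and 31.6% of all genes. The interaction was positive in all members of both lists (31.5% of all genes).

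Mki67, the Ki-67 proliferation marker, had 11.3, 12.9 and 9.896 FPKM with TGFB1 at D7 and 51.3, 56.2 and 65.2 FPKM with TGFB1 at D11. Vehicle held 56.4, 55.4 and 58.1 FPKM at D7 and 70.3, 52.4 and 53.1 FPKM at D11, so that TGFB1 and vehicle overlapped at D11 and every D7 TGFB1 library lay below all others. The effect was -2.23 (SE 0.077, limma, adjusted p = 4.26e-09) at D7 and -0.019 (SE 0.13, limma, adjusted p = 0.903) at D11. Cdc20, the activator of the anaphase-promoting complex, had 17.2, 17.7 and 16.9 FPKM with TGFB1 at D7 and 88.5, 90.6 and 81.2 FPKM with TGFB1 at D11, and vehicle means of 63.4 and 62.7 FPKM. It was above vehicle at D11, with an effect of 0.46 (SE 0.083, limma, adjusted p = 0.000819). Gtse1 and Anln, a spindle protein and a cytokinesis scaffold, did so too, with effects at D11 of 0.84 and 0.83, both called. Top2a, the topoisomerase of dividing cells, went from a mean of 22.6 to 82.7 FPKM, and Rrm2, the ribonucleotide reductase subunit of S phase, from 8.02 to 39.98 FPKM.

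Among 9 measured CDK inhibitors and D-type cyclins, 4 were higher and 2 lower at D11 (6.32% and 8.52% of all genes). Ccnd1, the cyclin D1 that drives entry into the cycle, had 43.6, 45.4 and 39.99 FPKM with TGFB1 at D7 and 181, 180.1 and 223 FPKM with TGFB1 at D11, with vehicle means of 56.1 and 84.3 FPKM. It was above vehicle at D11 alone (interaction 1.57, SE 0.12, limma, adjusted p = 7.52e-08). Cdkn2a, whose products p16 and p19 hold the cycle, was also higher at D11, at 9.34, 7.05 and 7.19 FPKM after 1.23, 0.907 and 1.701 FPKM at D7, with at most 1 FPKM as the mean of either vehicle group.

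The promoters of mitosis genes carry a known pair of elements, CCAAT, bound by NF-Y, and the cell cycle homology region TTTGAA (CHR), which are shown here because all members of the list moved together. Searched on both strands from 250 bases before to 50 after the start, 15 of 17 matched mitosis promoters (88.2%) held CCAAT and 11 (64.7%) held CHR, beside 41.1% and 20.2% of 27025 promoters of all genes. In the 250 bases before the start alone, 7 (41.2%) held CHR, beside 18.3% of all promoters. Shown are the 250 bases before the start of 3 of them, 5′ to 3′ on the gene's strand, from RefSeq (GRCm38.p6), with CCAAT and CHR matches on either strand in capitals. Mki67 lies at chr7:135716380-135716629, Cdc20 at chr4:118437344-118437593 and Ccnb1, the cyclin of entry into mitosis, at chr13:100786487-100786736, all on the minus strand.
Mki67: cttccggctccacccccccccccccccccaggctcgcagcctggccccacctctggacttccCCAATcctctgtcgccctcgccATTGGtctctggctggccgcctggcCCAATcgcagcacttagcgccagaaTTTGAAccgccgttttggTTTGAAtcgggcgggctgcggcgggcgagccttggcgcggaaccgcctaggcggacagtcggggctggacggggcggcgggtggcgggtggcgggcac
Cdc20: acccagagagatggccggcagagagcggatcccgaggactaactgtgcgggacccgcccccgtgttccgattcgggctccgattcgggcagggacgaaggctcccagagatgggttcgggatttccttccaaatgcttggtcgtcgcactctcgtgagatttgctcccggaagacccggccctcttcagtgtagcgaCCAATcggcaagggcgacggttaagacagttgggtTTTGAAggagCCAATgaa
Ccnb1: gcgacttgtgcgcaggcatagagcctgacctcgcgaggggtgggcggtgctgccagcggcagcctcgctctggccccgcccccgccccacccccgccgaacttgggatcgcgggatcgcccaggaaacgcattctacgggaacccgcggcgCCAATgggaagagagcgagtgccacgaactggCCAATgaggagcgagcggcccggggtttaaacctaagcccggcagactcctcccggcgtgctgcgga
In the window shown, Mki67 had 3 CCAAT and 2 CHR matches, Cdc20 had 2 and 1, and Ccnb1 had 2 CCAAT matches. A match is a description of the letters and shows no binding.

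Stem cell genes were higher at D11 than at the end of the pulse in part, and Lgr5 stayed below vehicle. In the stem list, 5 members were higher and 0 lower at D11 of 20 that passed the filter (6.32% and 8.52% of all genes), with a median difference of 0.55 beside 0.22 with vehicle. The 5 were Lgr5, Lrig1, Smoc2, Rgmb and Cdca7. Lgr5, the receptor that marks crypt base stem cells, had 8.93, 9.78 and 7.84 FPKM with TGFB1 at D7 and 31.2, 32.2 and 24.2 FPKM with TGFB1 at D11, and vehicle was higher at D11 as well, going from 21.9, 21.8 and 21.6 to 68.5, 56.5 and 52.1 FPKM. The D11 TGFB1 libraries stayed below every D11 vehicle library, with effects of -1.21 at D7 and -0.99 (SE 0.13, limma, adjusted p = 0.000109) at D11, and the interaction did not pass the test (0.22, SE 0.16, limma, adjusted p = 0.241). Without D11 TGFB1 replicate 3 it was 0.35 and called, as it was with array weights (0.31). Smoc2, a secreted protein of the crypt base, went from a mean of 25.8 FPKM at D7 to 62.9 FPKM at D11, beside 94.6 and 98.3 FPKM with vehicle (interaction 1.21, SE 0.13, limma, adjusted p = 1.75e-06). Olfm4, a secreted crypt glycoprotein, changed sides. It had 252, 269 and 211 FPKM with TGFB1 at D7 and 510.1, 449 and 392 FPKM with TGFB1 at D11 and vehicle values of 655, 658 and 685 FPKM at D7 and 288, 252 and 175 FPKM at D11. TGFB1 was below vehicle at D7, at -1.45, and above it at D11, at 0.94 (SE 0.18, limma, adjusted p = 0.00137).

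Enterocyte genes were lower at D11 than at D7, and most were lower with vehicle too. Of the enterocyte list, 0 members were higher and 23 lower at D11 of 25 that passed the filter (6.32% and 8.52% of all genes), with a median difference of -2.40 beside -1.61 with vehicle. With vehicle 20 members were lower (3.38% of all genes). The interaction was negative in 18 of 25 members (33.0% of all genes). Fabp1, the fatty acid-binding protein of enterocytes, had 4059, 3815 and 4086 FPKM with TGFB1 at D7 and 427, 429.9 and 494 FPKM with TGFB1 at D11 and with vehicle 3614, 3677 and 3903 FPKM at D7 and 622, 885 and 1307 FPKM at D11. Each D11 TGFB1 library lay below each D11 vehicle library, though the vehicle libraries of that day spread over 2-fold, and the interaction was -1.09 (SE 0.27, limma, adjusted p = 0.0029). Apoa4, a lipoprotein component of fat absorption, had 3523, 3464 and 3539.6 FPKM with TGFB1 at D7 and 157, 203 and 153 FPKM with TGFB1 at D11, and with vehicle 1542, 1493 and 1646 FPKM at D7 and 107, 136 and 236 FPKM at D11. It was above vehicle at D7 (1.17, SE 0.042, limma, adjusted p = 2.37e-09) and overlapped it at D11, where without D11 vehicle replicate 3 its effect was 0.48 and called. With quantile normalization the interaction of Fabp1 was -0.23 (limma, adjusted p = 0.456) and that of Apoa4 -0.41 (limma, adjusted p = 0.203), so neither call held under that setting. Apoc3, an inhibitor of lipoprotein lipase, and Lct, the lactase of the brush border, went from means of 547 to 40.4 FPKM and of 36.4 to 1.68 FPKM.

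Rbp2, the cellular retinol-binding protein of enterocytes, was lower at D11 in both groups. It had 2727, 2756 and 2949 FPKM with TGFB1 at D7 and 215, 218 and 250.3 FPKM with TGFB1 at D11, and with vehicle 1729, 1858 and 1923 FPKM at D7 and 96.5, 149.9 and 214 FPKM at D11, and the interaction did not pass the test (0.025, SE 0.29, limma, adjusted p = 0.948). Bcmo1, which cleaves carotene to retinal and is a target that ISX represses, had 50.6, 55.3 and 48.9 FPKM with TGFB1 at D7 and 1.48, 1.42 and 1.37 FPKM with TGFB1 at D11, and vehicle means of 88.6 and 9.28 FPKM. The D11 TGFB1 libraries held the lowest level of the 4 groups (effect at D11 -1.93, SE 0.38, limma, adjusted p = 0.00534). Bcmo1 was already below vehicle at D7 (-0.77, SE 0.049, limma, adjusted p = 1.44e-07). Its interaction was -1.16 (SE 0.43, limma, adjusted p = 0.0405). Rdh7, a retinol dehydrogenase, had means of 40.9 and 5.31 FPKM with TGFB1, and Stra6, the retinol uptake receptor, 0.593 and 5.59 FPKM. Of 13 retinoid genes, 3 were higher and 7 lower at D11 with TGFB1, and 2 and 5 with vehicle, beside 6.32% and 8.52% of all genes with TGFB1 and 3.44% and 3.38% with vehicle.

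The promoters of Rbp2 and Isx are given because their RNAs differed between the days in opposite directions in the same libraries. The searched letters were TTTATNG for CDX factors and CAAAGTC for HNF4, which drive enterocyte genes, and GGAATG for TEAD, the DNA partner of YAP, on both strands. Of 22 matched enterocyte promoters, 8 (36.4%) held the CDX letters, 4 (18.2%) the HNF4 letters and 4 (18.2%) the TEAD letters, beside 12.5%, 5.00% and 16.6% of all promoters. The 250 bases before the start of Rbp2 (chr9:98490287-98490536, plus strand) and Isx (chr8:74872924-74873173, plus strand) are from the same RefSeq table, with these matches in capitals.
Rbp2: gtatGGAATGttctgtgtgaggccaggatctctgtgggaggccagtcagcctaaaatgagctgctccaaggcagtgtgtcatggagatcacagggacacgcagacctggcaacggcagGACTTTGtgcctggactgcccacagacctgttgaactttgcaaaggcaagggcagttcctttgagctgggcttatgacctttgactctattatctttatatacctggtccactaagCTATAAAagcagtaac
Isx: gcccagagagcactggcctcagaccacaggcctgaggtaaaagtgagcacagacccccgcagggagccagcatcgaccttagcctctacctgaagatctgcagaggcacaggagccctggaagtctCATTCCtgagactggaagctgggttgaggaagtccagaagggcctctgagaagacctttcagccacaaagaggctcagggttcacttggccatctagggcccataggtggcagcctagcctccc
Rbp2 held 1 match of each of the 3, and Isx held 1 TEAD match. The CDX match in Rbp2, CTATAAA, also holds the letters TATAAA of a TATA box. The CDX letters cannot tell such boxes from CDX sites, so their share may include both.

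Genes of the villus tip were raised by TGFB1 at D7, and most were lower at D11. The effect at D7 was positive in all 11 members (35.8% of all genes), and the interaction was negative in all 11 (33.0% of all genes). At D11, 3 of 10 tested members were above and 4 below vehicle (32.3% and 31.6% of all genes), with a median effect of -0.15. 9 of 11 were lower at D11 (8.52% of all genes), with a median of -1.77 beside -0.36 with vehicle. Ada, the adenosine deaminase of the villus tip, had 301, 318 and 321 FPKM with TGFB1 at D7 and 10.5, 11.5 and 13.8 FPKM with TGFB1 at D11, and with vehicle 46.04, 46.2 and 50.02 FPKM at D7 and 25.1, 35.7 and 54.4 FPKM at D11. It was above vehicle at D7 (2.6995, SE 0.044, limma, adjusted p = 1.75e-11) and below it at D11 (-1.55, SE 0.28, limma, adjusted p = 0.00367). Krt20, a keratin of differentiated villus cells, had 509, 527 and 574 FPKM with TGFB1 at D7 and 34.9, 37.8 and 32.5 FPKM with TGFB1 at D11, with vehicle means of 148 and 49.7 FPKM. Creb3l3, a transcription factor of lipid metabolism, went from 282 to 17.5 FPKM with TGFB1, beside 118 and 29.8 FPKM with vehicle. Its effect at D11 was not called (-0.66, SE 0.32, limma, adjusted p = 0.127). Fcgrt, the neonatal Fc receptor, went from 236 to 7.93 FPKM with TGFB1. The D11 effect was 0.062 (SE 0.20, limma, adjusted p = 0.806) for Fcgrt, beside 3.64 at D7.

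Enteroendocrine genes were above vehicle at D7 and below it at D11. By the test of the effect, 15 of 19 members were above and 2 below vehicle at D7 (35.8% and 39.7% of all genes), and 0 of 19 members were above and 15 below vehicle at D11 (32.3% and 31.6%). 14 of 18 members were lower at D11 (8.52% of all genes) and none higher, with a median of -1.38, while vehicle had a median of 0.50. Pyy, the gut hormone peptide YY, had 329, 325 and 449.7 FPKM with TGFB1 at D7 and 3.404, 2.43 and 2.41 FPKM with TGFB1 at D11, and 1.11, 1.67 and 1.04 FPKM at D7 and 1.08, 2.68 and 3.37 FPKM at D11 with vehicle. It was high in the D7 TGFB1 libraries alone, and at D11 the groups overlapped (effect 0.21, SE 0.26, limma, adjusted p = 0.511). Chga, a granule protein of endocrine cells, had 120.3, 116 and 121 FPKM with TGFB1 at D7 and 37.1, 35.4 and 29.5 FPKM with TGFB1 at D11, and 63.7, 65.3 and 62.5 FPKM at D7 and 86.98, 98.7 and 83.4 FPKM at D11 with vehicle. Its effect was 0.89 (SE 0.036, limma, adjusted p = 5.5e-09) at D7 and -1.38 (SE 0.10, limma, adjusted p = 2.49e-06) at D11. The hormone genes Gcg (proglucagon), Cck (cholecystokinin) and Ghrl (ghrelin) had TGFB1 means of 301, 676 and 178 FPKM at D7 and 83.8, 201 and 55.2 FPKM at D11. All 3 were above vehicle at D7 and below it at D11, with interactions of -2.99, -2.11 and -2.49, each called.

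Some goblet genes were higher and some Paneth genes lower at D11. In the goblet list, 4 members were higher and 1 lower at D11 of 14 that passed the filter (6.32% and 8.52% of all genes), with a median difference of 0.51 beside -0.20 with vehicle. Agr2, a disulfide isomerase needed for mucin, went from a mean of 67.8 FPKM at D7 to 191 FPKM at D11, close to its D11 vehicle mean of 174 FPKM. Clca3 and Ern2, a goblet granule protein and a mucin-cell stress sensor, were below vehicle at D7 and above it at D11, with interactions of 1.72 and 2.30. Muc2, the main mucin, had means of 13.1 FPKM at D7 and 18.8 FPKM at D11 and did not pass the interaction test (0.069, SE 0.13, limma, adjusted p = 0.647). Guca2a, guanylin, was the goblet member that was lower, from a mean of 482 FPKM at D7 to 132 FPKM at D11. In the Paneth list, 0 members were higher and 4 lower at D11 of 17 that passed the filter (6.32% and 8.52% of all genes), with a median difference of -0.74 beside -0.54 with vehicle. Lyz1, lysozyme, had 2810.1, 2913 and 3091 FPKM with TGFB1 at D7 and 1802, 1502 and 2149 FPKM with TGFB1 at D11, and its effect was 0.62 at D7 and 0.76 (SE 0.16, limma, adjusted p = 0.00257) at D11, without a called interaction (0.15, SE 0.18, limma, adjusted p = 0.501). With quantile normalization the effect at D7 was 0.056 and not called, and the interaction was 1.03 and called. The 3 defensins that were lower, Defa20, Defa22 and Defa5, belong to a family of near-identical genes, so that their separate values are uncertain. Reg3g, an antimicrobial lectin, was above vehicle at D7 (0.77) and below it at D11 (-1.57, SE 0.29, limma, adjusted p = 0.00315).

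Products of stomach, pancreas and stratified epithelium split into 3 courses. Ctrb1, chymotrypsinogen B of the pancreas, had the largest decrease of all genes named, at 2728, 2514 and 2593 FPKM with TGFB1 at D7 and 11.1, 10.6 and 11.7 FPKM with TGFB1 at D11, and with vehicle 73.1, 63.7 and 74.6 FPKM at D7 and 15.5, 18.98 and 33.6 FPKM at D11. All D11 TGFB1 libraries lay below all vehicle libraries of that day, and the interaction was -6.09 (SE 0.30, limma, adjusted p = 4.84e-08). The effect at D11, -0.89 (SE 0.26, limma, adjusted p = 0.0248), lost its call when any 1 of the D11 TGFB1 libraries was left out (-0.93 to -0.86). Cym, the stomach protease chymosin, stayed, at 251, 256 and 162 FPKM with TGFB1 at D7 and 389.5, 253 and 303 FPKM with TGFB1 at D11, with vehicle means of 0.294 and 0.293 FPKM. Ctse, the gastric protease cathepsin E, stayed with effects of 4.57 and 4.26. Tff2, a gastric trefoil peptide, appeared in the D11 TGFB1 libraries at 4.198, 4.43 and 4.04 FPKM after 0.355, 0 and 0 FPKM at D7, with 1.797 FPKM as the D11 vehicle mean. Of the stratified epithelium genes, Sfn (14-3-3 sigma) and Krt14 (a basal keratin) were lower at D11, from a mean of 634 FPKM at D7 to 142 FPKM at D11 and a mean of 11.5 FPKM at D7 to 4.36 FPKM at D11, and Tgm1, a crosslinking enzyme, was higher, from 0.681 to 7.61 FPKM.

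Interferon and antigen presentation genes were raised at D7 and below vehicle at D11. By the test of the effect, 17 of 20 members were above and 0 below vehicle at D7 (35.8% and 39.7% of all genes), and 2 of 17 members were above and 12 below vehicle at D11 (32.3% and 31.6%). The interaction was negative in all 20 members (33.0% of all genes). Of 19 members, 12 were lower at D11 with TGFB1 (8.52% of all genes) and none higher, and with vehicle 0 were lower and 2 higher (3.38% and 3.44%). Irf7, the main regulator of the interferon response, had 36.4, 39.5 and 36.7 FPKM with TGFB1 at D7 and 6.67, 7.52 and 5.74 FPKM with TGFB1 at D11, and 13.2, 11.3 and 13.1 FPKM at D7 and 10.05, 11.04 and 14.3 FPKM at D11 with vehicle. The D7 TGFB1 libraries were the highest and the D11 TGFB1 libraries the lowest of the 4 groups (interaction -2.25, SE 0.16, limma, adjusted p = 4.76e-08). Oasl2, Ifit1 and Isg15, antiviral effectors induced by interferon, had TGFB1 means of 11.8, 6.37 and 8.24 FPKM at D7 and 1.65, 0.739 and 0.762 FPKM at D11. The immune markers, summed above, lay under 1 FPKM in 8 of 10 members, and the source of the interferon RNAs was not tested.

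Of 14 cytokine and chemokine genes, 2 were higher and 8 lower at D11 with TGFB1 (6.32% and 8.52% of all genes). Ccl25, a chemokine of small intestinal enterocytes, had 316, 297 and 285 FPKM with TGFB1 at D7 and 74.2, 74.4 and 75.5 FPKM with TGFB1 at D11, with vehicle means of 447 and 387 FPKM (interaction -1.78, SE 0.11, limma, adjusted p = 1.45e-08). Csf1, the macrophage growth factor, was lower at D11, at 3.69 FPKM after 16.8 FPKM, and still above vehicle (1.32, SE 0.12, limma, adjusted p = 1.1e-05). All 8 AP-1 genes, stress-responsive partners of SMADs, were above vehicle at D7 and 5 at D11 (35.8% and 32.3% of all genes). Fos had 80.4, 78.8 and 97.1 FPKM with TGFB1 at D7 and 30.5, 29.7 and 26.4 FPKM with TGFB1 at D11 and Jun had 127, 128 and 132 FPKM with TGFB1 at D7 and 69.00, 56.2 and 62.1 FPKM with TGFB1 at D11, both between the D7 TGFB1 level and their D11 vehicle means of 13.3 and 20.5 FPKM. The EGF ligand Areg went from a mean of 169.5 FPKM at D7 to 74.6 FPKM at D11 with TGFB1 and did not differ detectably from vehicle at D11 (effect -0.14, SE 0.21, limma, adjusted p = 0.564).

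YAP targets, which mark mechanical and regenerative signalling, stayed above vehicle in most members. By the test of the effect, 17 of 17 members were above and 0 below vehicle at D7 (35.8% and 39.7% of all genes) and 13 of 16 members were above and 1 below vehicle at D11 (32.3% and 31.6%). By level 3 were higher and 3 lower at D11 of 17 (6.32% and 8.52%). The 3 that were higher were Ctgf, Ankrd1 and Ptpn14. Ankrd1, a nuclear ankyrin protein, had 4.55, 3.84 and 4.56 FPKM with TGFB1 at D7 and 16.5, 13.2 and 13.6 FPKM with TGFB1 at D11 (interaction 2.00, SE 0.20, limma, adjusted p = 9.06e-07). F3, tissue factor, was among those lower, at 298, 296 and 339 FPKM with TGFB1 at D7 and 124, 102 and 91.8 FPKM with TGFB1 at D11, with an interaction of -2.56 (SE 0.17, limma, adjusted p = 2.97e-08). Of 28 matrix genes, 14 passed the filter at D11, and all 14 were above vehicle (32.3% of all genes). Genes low with vehicle, YAP targets included, can pass it through the TGFB1 libraries alone, so the filter favours such outcomes. Efemp1 did so, with D11 means of 0.0628 FPKM with vehicle and 21.4 FPKM with TGFB1. Fn1, fibronectin, had 6.07, 7.32 and 6.78 FPKM with TGFB1 at D7 and 50.02, 26.7 and 37.4 FPKM with TGFB1 at D11, and Lama3, a laminin chain of the basement membrane, had 35.6, 35.5 and 41.9 FPKM with TGFB1 at D7 and 12.2, 8.41 and 10.6 FPKM with TGFB1 at D11. The 2 moved in opposite directions between the days, with interactions of 2.22 and -2.06, both called.

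**Figure D3:**
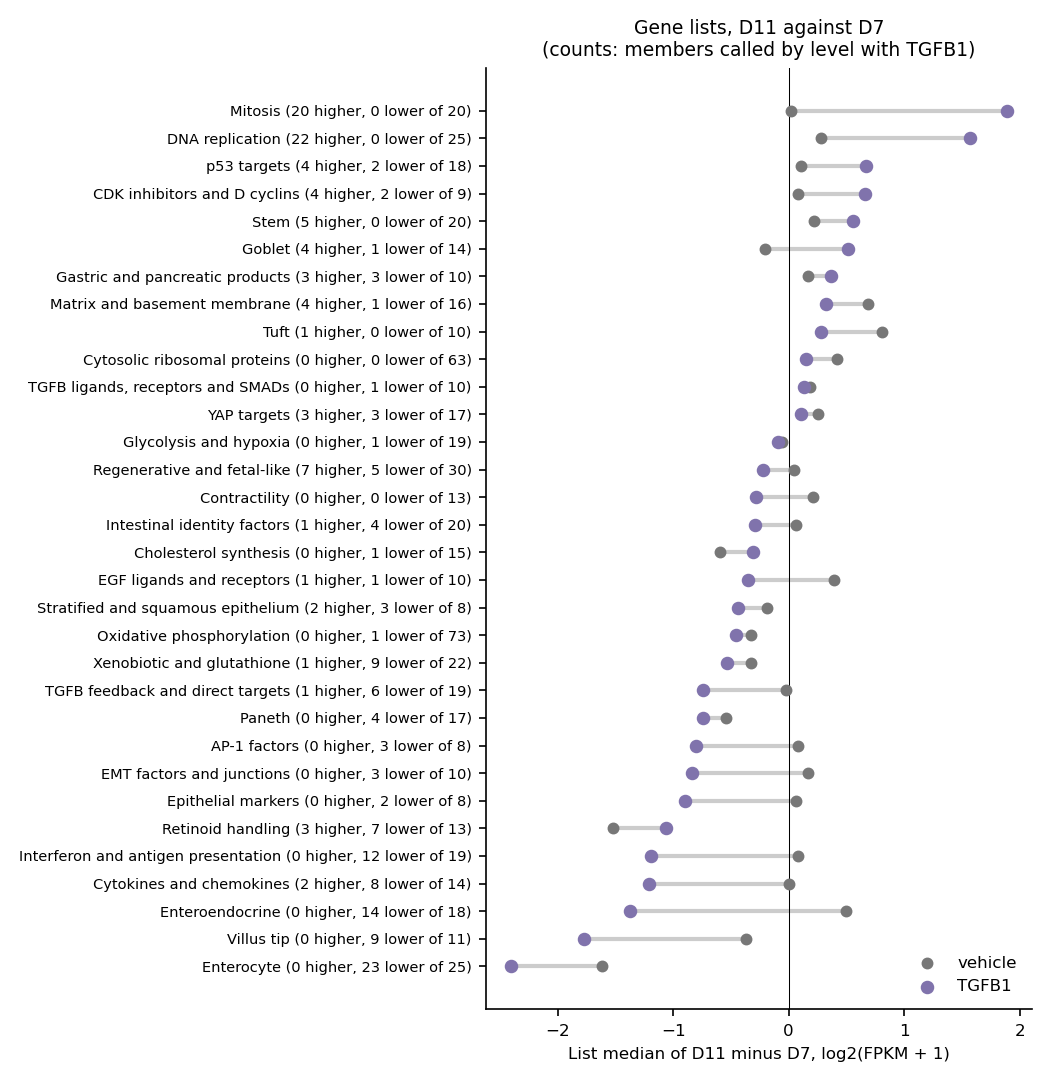
Median difference of log2(FPKM + 1) between D11 and D7 over the members of each gene list with at least 5 members that passed the filter, with TGFB1 (purple) and vehicle (grey), and in the label the number of members higher and lower at D11 with TGFB1. Mitosis (1.89) and DNA replication (1.57) are at the top with vehicle near 0, the enterocyte list (-2.40) is at the bottom with vehicle at -1.61, and the enteroendocrine list has opposite signs.

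The 3 fits sort 11053 genes by the course of the TGFB1 effect. An effect counted as raised or lowered when it was called and at least 2-fold, and as stayed when this held on both days. It counted as faded or appeared when this held on 1 day alone and the interaction was called in the matching direction. By this rule 366 genes were raised and stayed, 404 were raised and faded, and 184 were raised at D11 alone. In the other direction 127 stayed, 442 faded and 673 appeared at D11, and 31 turned from one direction to the other. Stayed refers to the effect over vehicle and not to the level. Of the 366, 33 were higher and 50 lower at D11 by level (6.32% and 8.52% of all genes). The interaction was positive in 77 and negative in 121 (31.5% and 33.0%), and Skil and Spp1 are among the 366. A gene raised at D11 alone could be above vehicle by under 2-fold at D7, as Ly6a was (0.75). Genes averaging under 1 FPKM in the libraries of any fit have no class, so the counts leave out genes near silent on 1 day. Isx, Krt4, Efemp1 and Wnt7b, too low for the D7 fit, are therefore not among the 184. The classes use the same TGFB1 libraries as the comparison of levels, so both rest on the same libraries. The median difference of TGFB1 levels between the days was -0.11 in the genes raised that stayed, -0.80 in those that faded and 0.66 in those that appeared. It was 0.026, 1.34 and -0.78 in the same classes of lowered genes.

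In the class lowered at D11 alone, much of the difference lay in the vehicle libraries, whose median difference between the days was 0.51. Myl9, a myosin light chain, had 1.53, 2.88 and 2.21 FPKM with TGFB1 at D7 and 1.13, 1.68 and 1.08 FPKM with TGFB1 at D11, and vehicle went from 2.71, 4.69 and 3.84 to 62.1, 97.8 and 65.7 FPKM. Sepp1, the selenium transport protein selenoprotein P, moved on both sides, with TGFB1 means of 632 FPKM at D7 and 85.97 FPKM at D11 and vehicle means of 339 and 934 FPKM. Fbp1, an enzyme of gluconeogenesis, had TGFB1 means of 25.9 FPKM at D7 and 4.91 FPKM at D11 and vehicle means of 43.1 and 106 FPKM (interaction -3.48, SE 0.23, limma, adjusted p = 1.35e-07). Among lowered genes that stayed were Aqp4, a water channel, with effects of -3.06 and -2.58 and Rgcc, a cell cycle regulator on the TGFB target list, with -2.77 and -2.25. Among those that faded were Rbp7, a retinol-binding protein, and Psat1, an enzyme of serine synthesis. Rbp7 had 0.399, 0.668 and 0.781 FPKM with TGFB1 at D7 and 2.19, 2.61 and 2.41 FPKM with TGFB1 at D11, and 26.2, 31.3 and 28.8 FPKM at D7 and 2.500, 3.85 and 4.88 FPKM at D11 with vehicle, so that the larger part of its interaction lay in a lower vehicle level at D11. Psat1 had TGFB1 means of 22.3 FPKM at D7 and 81.7 FPKM at D11 and vehicle means of 75.2 and 45.4 FPKM.

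**Figure D4:**
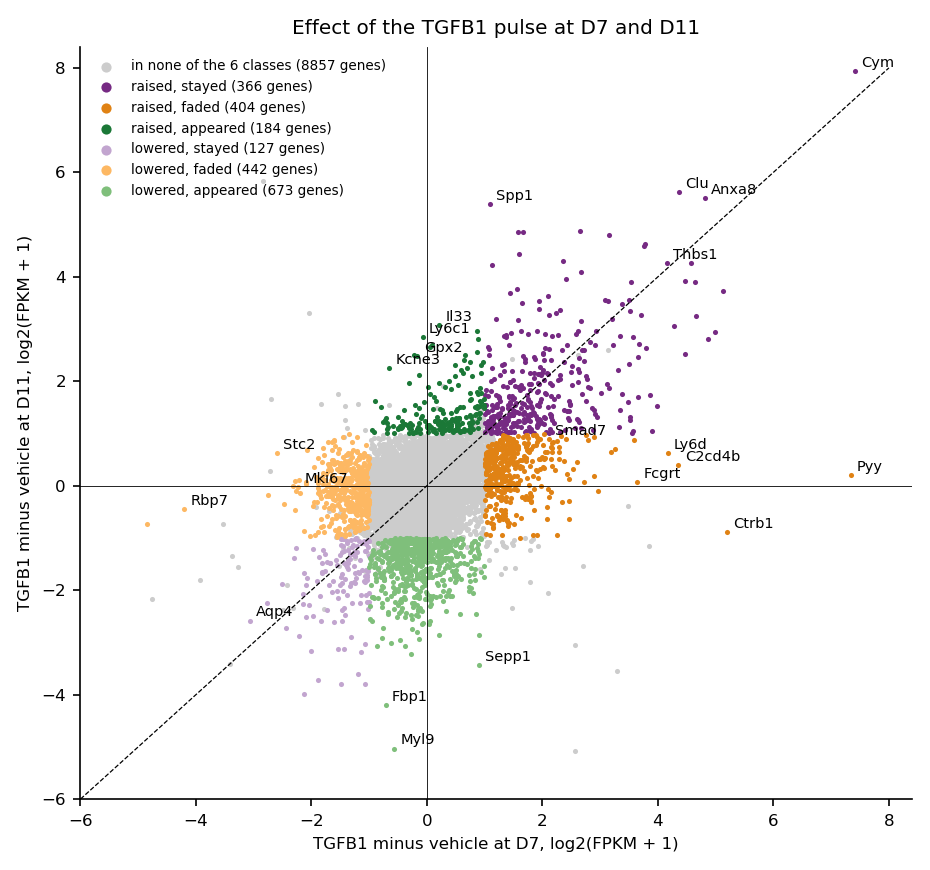
Effect of TGFB1 over vehicle in log2(FPKM + 1) at D7 (x axis) and D11 (y axis) for 11053 genes tested in all 3 fits, coloured by class, with the dashed line at equal effects. Clu, Cym and Anxa8 lie near or above the line, Pyy and Ctrb1 lie far to the right near no effect at D11, and Myl9, Fbp1 and Sepp1 lie at the bottom.

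Single-cell libraries of irradiated D8 organoids gave a readout that the classes did not use. They covered 0, 6, 15 and 24 h of TGFB1 at 1 ng/mL, with 1 library each and no test, and the day and the dose differ from those of the bulk pulse. Values are CPM, molecule counts (UMIs) summed over cells and scaled to the same total in each library, of 2932, 4283, 2890 and 2218 kept cells, whose median depths were 8202, 6709, 7805 and 10441 UMIs. The libraries shared no cell barcodes, except 1 between 15 and 24 h. At 24 h, 4.03% of 8503 genes were at least 2-fold above 0 h and 1.48% at least 2-fold below. Of the measured genes raised in bulk, 71.3% of 143 that stayed, 45.2% of 270 that faded and 4.88% of 82 that appeared at D11 were at least 2-fold above 0 h. Of the lowered genes, 35.3% of 68 that stayed and 9.78% of 317 that faded were at least 2-fold below. These shares do not test the classes, since the D7 effect that defines them was also measured after 24 h of TGFB1. Genes that appeared were by definition not raised then. Raised genes that stayed had a larger median effect at D7 (1.78) than those that faded (1.36).

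Skil, Smad7, Clu and Anxa1 were highest at 24 h, by different courses. Skil stood at 28.01, 83.8, 95.96 and 101 CPM at 0, 6, 15 and 24 h and Smad7 at 14.7, 30.2, 37.6 and 40.5 CPM, so both were already above 0 h at 6 h. Clu stood at 13.3, 67.8, 325 and 773 CPM, above 0 h at 6 h and with most of the difference after 6 h, and Anxa1 at 3.25, 4.01, 31.1 and 98.2 CPM, with overlapping intervals at 0 and 6 h. The 95% Poisson interval of Clu, which covers counting error only, was 11.98 to 14.8 CPM at 0 h and 763 to 783 CPM at 24 h. Ctrb1 stood at 79.7, 165, 539 and 931 CPM and Pyy at 0, 0.278, 3.38 and 28.2 CPM, and Ada was highest at 15 h, with 25.7, 57.97, 226 and 122 CPM. Mki67 stood at 125, 144, 83.6 and 59.8 CPM, lowest at 24 h. Genes that were far higher in bulk at D11 than at D7 differed among themselves in level here. Isx stood at 0.0327 CPM at 24 h (95% interval 0.000827 to 0.182), Krt4 at 0.163, Spp1 at 0.229 and Efemp1 at 0.0327 CPM. For these 4 the 95% intervals at 0 and 24 h overlapped, which is no test of a difference. Spp1 had 0 UMIs at 0 h and 7 at 24 h, and in bulk its effect at D7 was already called (1.09). Wfdc18 stood at 0.0731 CPM at 0 h (95% interval 0.00886 to 0.264) and 1.57 CPM at 24 h (1.16 to 2.08), and Slc25a48 at 0.75 and 1.81 CPM. Gpx2 and Kcne3, raised in bulk at D11 alone, were abundant at both times, at 475 and 102 CPM at 0 h and 458 and 87.2 CPM at 24 h.

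**Figure D5:**
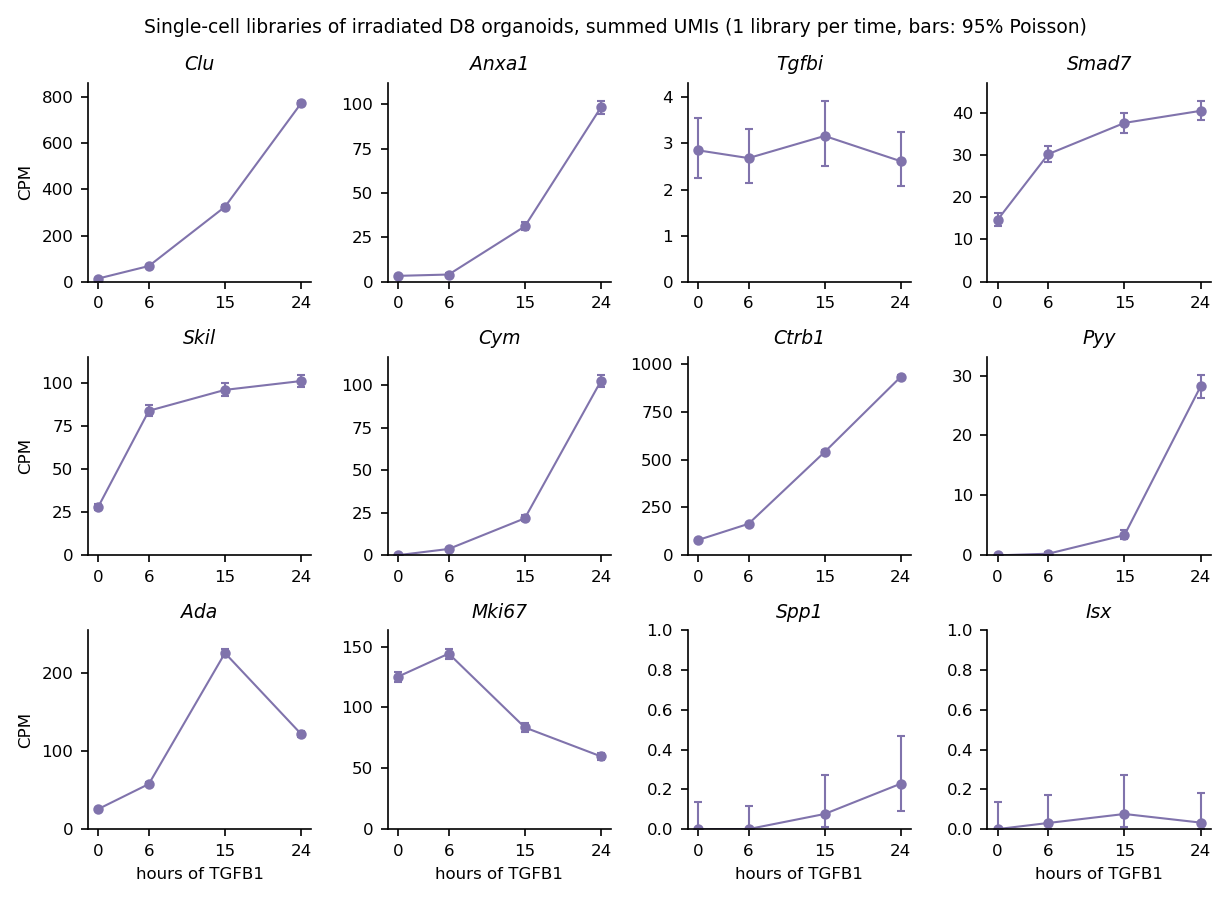
CPM of summed UMIs in the 4 single-cell libraries of irradiated D8 organoids against hours of TGFB1, 1 library per time, with 95% Poisson bars. Clu, Anxa1, Cym, Ctrb1 and Pyy are highest at 24 h, Smad7 and Skil are above 0 h from 6 h on, Mki67 is lowest at 24 h, and Spp1 and Isx stay under 1 CPM.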

How the data were processed

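Bulk RNA-seq of 12 irradiated organoid libraries in 4 groups of 3 was used, with groups and replicate numbers from the labels. The RNA values are FPKM as deposited by the authors in 1 table per condition, 2 of which were used (23951 genes joined on symbol; 0 value columns were left unmapped). Per the submitters' processing notes the series used TopHat2 2.1.0, Cuffnorm 2.2.1 and Cuffdiff 2.2.1 among other tools, and neither the step that made these tables nor their genome build is given in the sources used here. No read counts were used here, so the read depth is unknown. The single-cell matrices hold expected counts of UMIs as deposited by the authors, with 7.72 to 11.7% of UMIs in fractional entries. They were summed over cells with at least 500 UMIs, 250 genes and at most 20% mitochondrial UMIs, without rounding and without a doublet caller.

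Values were taken to log2(FPKM + 1), genes averaging under 1 FPKM in the libraries of a fit were dropped, and limma 3.58.1 in R 4.3.3 was run with a variance trend and robust empirical Bayes, two-sided, with Benjamini-Hochberg adjustment over all genes tested and a threshold of 0.05. The fits were tested on simulated data. Named genes were a panel of 22, the 12 largest differences of levels in each direction whose groups did not overlap and that reached 10 FPKM (short RNAs left out), the 5 largest of each class, and per list its panel members or otherwise up to 4 with the largest difference. A few genes that this rule names are not reported here. A few further genes of 5 or fewer counted were named after their values were seen. The genes compared and the lists were chosen with earlier results of these data known. Promoters came from RefSeq (GRCm38.p6) by symbol. They matched 17 of 20 mitosis and 22 of 25 enterocyte genes. Only 572 of 719 genes higher (79.6%) and 752 of 970 lower (77.5%) at D11 matched, under the minimum of 80%, so motif shares over those sets are void. Replicate numbers did not pair the libraries. Alternatives were another pseudocount, filter, scaling, fold, variance model or block, and leaving out each library in turn.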

Additional observations from a re-analysis of the deposited data

Results flagged for a closer look

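The effect of TGFB1 differed between D11 and D7, by the interaction term itself, in 7387 of 11456 genes (limma, Benjamini-Hochberg adjusted p under 0.05). Many genes pass because replicates lay close together, so the sizes matter more than the number. Among the 20 genes of the panel that are reported here, 16 passed. The term was positive, so that TGFB1 stood higher against vehicle at D11 than at D7, for Isx (5.43), Krt4 (5.29), Olfm4 (2.39), Mki67 (2.21), Ly6a (1.63), Top2a (1.51), Clu (1.26) and Anxa1 (0.83). It was negative for Pyy (-7.13), Ctrb1 (-6.09), Chga (-2.27), Tgfbi (-2.08), Smad7 (-1.22), Fabp1 (-1.09), Apoa4 (-1.01) and Skil (-0.84). A positive term can come from either side: for Clu and Gpx2 the vehicle level was lower at D11 by a factor of 2.43 and 2.73, while for Isx and Krt4 both vehicle groups were under 1 FPKM on average.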

How the results depend on the processing

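Counts of genes and the direction of each panel gene were recomputed under 20 other settings. Of the main counts and values, 276 recomputed values stayed within the stated tolerance and 20 moved. At 1.5-fold in place of 2-fold, 1771 genes were higher and 1990 lower at D11 with TGFB1, and 1242 and 1031 with vehicle. At 4-fold the counts were 61 and 207 with TGFB1, and 22 and 61 with vehicle. Genes higher with vehicle numbered 637 with a pseudocount of 0.1 and 239 with a minimum mean of 5 FPKM. Lowered genes that stayed numbered 197 with a pseudocount of 0.1. Over genes of at least 5 FPKM, raised genes that stayed numbered 223 and raised genes that appeared 114, where fewer genes are tested. In the single-cell library of 24 h, whole entries alone gave 875.8 CPM for Clu, 45.7 for Smad7, 67.7 for Mki67 and 31.9 for Pyy, and a mitochondrial limit of 10% gave 819 CPM for Clu and 62.9 for Mki67. In the 250 bases before the start alone, 41.2% of mitosis promoters held CHR.

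Leaving out 1 library at a time gave 696 to 736 genes higher and 946 to 1000 lower at D11 with TGFB1, 3192 to 3887 and 3261 to 3704 genes above and below vehicle at D11, and 3365 to 3801 positive and 3561 to 3914 negative interactions. Effects at D11 that turned were near 0 and not called. Without D11 vehicle replicate 1 they were 0.12 for Mki67, -0.081 for Apoa4 and -0.11 for Pyy (0.43 at the highest, without D11 vehicle replicate 3), without D11 TGFB1 replicate 1 Mki67 was at 0.059, with quantile normalization at 0.020 and with array weights at 0.0089. The effect of Fabp1 at D7 was -0.55 with quantile normalization, and 0.096 and not called in the main setting. The interaction of Lgr5 was called with array weights (0.31) and without D11 TGFB1 replicate 3 (0.35). With quantile normalization those of Lyz1 (1.03) and Cym (1.07) were called. Apoa4 at D11 was called without D11 vehicle replicate 3 (0.48), and Lyz1 at D7 was not called with quantile normalization (0.056). The cause of these shifts was not tested. The median of the contractility list turned to 0.17 and that of glycolysis and hypoxia to 0.13 with quantile normalization.

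Same-numbered libraries did not deviate together: the correlations of their deviations were 0.075, 0.21 and 0.021 in the D7 table and -0.086, -0.025 and 0.097 in the D11 table, so the numbers were not used as pairs. With the replicate number as a block, 3985 genes were above and 4432 below vehicle at D7, 3700 and 3651 at D11, and 3601 interactions were positive and 3795 negative. Among panel genes the block changed 1 call, that of Fabp1 at D7 (0.096, limma, adjusted p = 0.0438). The number of libraries and the unknown read depth limit what can be said of genes near 1 FPKM.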

Other observations

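Most detoxification and respiration genes were below vehicle on both days. Of 22 xenobiotic and glutathione genes tested at D7, 18 were below vehicle and 1 above (39.7% and 35.8% of all genes). Of 23 tested at D11, 18 were below vehicle and 1 above (31.6% and 32.3%), and by level 9 were lower and 1 higher at D11 than at D7 (8.52% and 6.32%). The carboxylesterase Ces2e had 259, 268 and 267 FPKM with TGFB1 at D7 and 44.3, 46.4 and 47.7 FPKM with TGFB1 at D11, with vehicle means of 345 and 268 FPKM. Its family holds similar genes, so the value of each is uncertain. Gsta3, a glutathione transferase, was the member that was higher, from a mean of 22.4 FPKM at D7 to 77.5 FPKM at D11. Of 73 oxidative phosphorylation genes, 63 were below vehicle at D7 and 56 at D11 (39.7% and 31.6% of all genes), with median effects of -0.33 and -0.51. The muscle-type cytochrome oxidase subunit Cox7a1 was the member lower at D11 by over 2-fold, at 132, 138 and 135 FPKM with TGFB1 at D7 and 8.17, 10.2 and 10.1 FPKM with TGFB1 at D11. Its vehicle means were 107 and 57.0 FPKM. Cox7a1 was above vehicle at D7 (0.34, SE 0.041, limma, adjusted p = 2.3e-05) and below it at D11 (-2.40, SE 0.29, limma, adjusted p = 0.000651). In the cholesterol synthesis list, 0 members were higher and 1 lower at D11 of 15 that passed the filter (6.32% and 8.52% of all genes), with a median difference of -0.31 beside -0.59 with vehicle.

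Junction and contractile genes took separate courses. Cldn4, a sealing claudin, had 1300.3, 1304 and 1499 FPKM with TGFB1 at D7 and 352, 291 and 279 FPKM with TGFB1 at D11 and stayed above vehicle (effect at D11 1.01, SE 0.14, limma, adjusted p = 0.000167). Cldn3, another claudin, was above vehicle at D7 (0.58) and below it at D11 (-1.16, SE 0.16, limma, adjusted p = 0.000134). Vim, the mesenchymal intermediate filament, had means of 5.14 FPKM at D7 and 1.73 FPKM at D11 and was below vehicle at D11 (-1.34, SE 0.16, limma, adjusted p = 5.18e-05). Of 12 contractility genes, 11 were above vehicle at D7 and 11 at D11 (35.8% and 32.3% of all genes). Of 18 p53 targets, 13 were above and 1 below vehicle at D11 (32.3% and 31.6% of all genes), and by level 4 were higher and 2 lower at D11 (6.32% and 8.52%). Gdf15, a stress cytokine of that list, had means of 6.32 FPKM at D7 and 25.04 FPKM at D11 with TGFB1 and 10.3 and 28.1 FPKM with vehicle, and its effect at D11 was -0.14 (SE 0.13, limma, adjusted p = 0.363). In the tuft cell list, 1 member was higher and 0 lower at D11 of 10 that passed the filter (6.32% and 8.52% of all genes), with a median difference of 0.28 beside 0.81 with vehicle, and in the list of intestinal identity factors, 1 member was higher and 4 lower at D11 of 20 that passed the filter (6.32% and 8.52% of all genes), with a median difference of -0.29 beside 0.063 with vehicle. In the glycolysis and hypoxia list, 0 members were higher and 1 lower at D11 of 19 that passed the filter (6.32% and 8.52% of all genes), with a median difference of -0.092 beside -0.058 with vehicle. In the ribosomal protein list, 0 members were higher and 0 lower at D11 of 63 that passed the filter (6.32% and 8.52% of all genes), with a median difference of 0.15 beside 0.42 with vehicle; many of these genes have processed copies, so their values are uncertain. Of the 3 measured BMP targets, Id2 was higher at D11, from a mean of 13.3 FPKM at D7 to 43.1 FPKM at D11. Id1 and Id3 had lower means at D11, from 72.3 to 36.9 FPKM and from 14.7 to 8.003 FPKM, without reaching 2-fold on the log2(FPKM + 1) scale.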
